A study of Homo sapiens with 6 samples.

Results

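Lysosomes are acidic compartments that degrade proteins, glycans and lipids, including the cargo that autophagosomes deliver to them. The vacuolar ATPase pumps protons into the lysosome, with a cytosolic sector that hydrolyses ATP and a membrane sector that carries the protons. The acid hydrolases are made in the endoplasmic reticulum, most are tagged with mannose 6-phosphate, and they reach the lysosome through sorting receptors. Many of these genes are known targets of TFEB and TFE3, transcription factors that bind a palindromic promoter element called CLEAR, which contains the E-box CACGTG.

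Listed by function, with earlier results of these data known, were 47 genes of lysosomal hydrolases, vacuolar ATPase subunits and their partners. Of these, 45 had at least 1 probe set that the platform annotation assigns to that gene alone, among 19775 genes with such a probe set, and together they had 120 probe sets. ATP6V1F and GLB1 had only a probe set shared with another gene and got no value here. ATP6V0A1, ARSA and HEXA had probe sets whose means over the arrays stayed under log2 4 (highest 1.83, 3.54 and 2.55), near the floor, and were not tested. The 42 genes left comprised 14 of 16 proton pump genes, 9 of 9 cathepsins and other proteases, 10 of 13 glycosidases and sulfatases, 5 of 5 lipid hydrolases and their activators, and 4 of 4 channels, transporters and progranulin. Each was represented by its brightest probe set unless another is named.

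The cells were PC3, an established human prostate cancer line that grows without androgen. They were kept in RPMI medium with 10% fetal bovine serum and collected 72 h after they had received a VEGF-C siRNA pool, an NRP-2 siRNA pool or scrambled siRNA. Each of these 3 groups had 2 arrays. VEGF-C is a lymphatic growth factor and NRP-2 (neuropilin-2) one of its co-receptors, and the title of the series places the VEGF-C axis in the regulation of autophagy. Each target was addressed by a single pool, and the labels give different suppliers for the pools, so target and pool cannot be told apart. The labels do not say whether the arrays of a group came from separate cultures, so a p-value here measures the spread between arrays, which may be technical.

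VEGFC stood at log2 8.46 and 7.27 with VEGF-C siRNA, against 11.81 and 11.80 with scrambled siRNA. NRP2 stood at 3.41 and 2.81 with NRP-2 siRNA, under log2 4 and so near the floor, against 4.77 and 4.92 with scrambled siRNA. With VEGF-C siRNA NRP2 stood at 5.51 and 6.01, above both scrambled arrays, a difference of 0.91. Of the epithelial markers examined, 5 of 5 had a mean of log2 4 or more, as did 0 of 6 macrophage, 2 of 5 fibroblast and 1 of 3 endothelial markers. The average over G2 and mitosis genes was 11.26 and 10.51 on the VEGF-C arrays, 11.10 and 10.04 on the NRP-2 arrays, and 10.36 and 8.69 on the scrambled arrays, so scrambled array 2 stood lowest. Results are given below without that array and with this average as covariate where either ends a call.

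The promoters are shown first. Many of these genes are known targets of TFEB and TFE3, so a higher share of E-boxes was built into their choice. The shares below describe the genes and are not an independent result. RefSeq promoter sequences (GRCh38.p14, from 250 bases before to 50 bases after the annotated start) were matched for 33 of the 47 genes, 37 promoters in all. CACGTG, which reads alike on both strands, was present in 10 of the 37 promoters (27.0%), against 9.33% of 13513 promoters of the genes tested on the arrays and 7.26% of all 35116 promoters. The longer TCACGTGA, which contains it, was present in 5 (13.5%, against 1.72% and 0.98%), and its extension to the full CLEAR palindrome, with G before and C after it, in 3 (8.11%, against 0.65% and 0.35%). CCAAT, a general promoter element searched on both strands, was present in 15 (40.5%, against 35.1% and 34.6%). The 15 E-boxes lay at positions -160 to -14 from the start. The 30 bases around an E-box (capitals) are printed from the strand of the gene for the 5 promoters with TCACGTGA and for CTSD, whose transcript is among the results.
ATP6V1G1 (chr9:114587699-114587728, plus strand): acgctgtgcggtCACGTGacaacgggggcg
ATP6V0D1 (chr16:67481199-67481228, minus strand): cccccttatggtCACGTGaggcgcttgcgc
GAA (chr17:80101493-80101522, plus strand): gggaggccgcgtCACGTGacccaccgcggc
MCOLN1 (chr19:7522598-7522627, plus strand): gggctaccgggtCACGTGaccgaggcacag
CTSA (chr20:45891298-45891327, plus strand): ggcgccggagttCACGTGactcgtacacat
CTSD (chr11:1763957-1763986, minus strand): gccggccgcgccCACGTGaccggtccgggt

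Most lysosomal transcripts differed little between the groups. In limma's test 0 of the 42 genes passed a Benjamini-Hochberg adjusted p of 0.05 over the 11131 genes tested. Neither did any other gene (0.0% in each of the 3 comparisons). That includes the targeted genes, VEGFC with VEGF-C siRNA (-3.95, adjusted p = 0.204) and NRP2 with NRP-2 siRNA (-1.74, adjusted p = 0.213). A gene that does not pass may therefore still have changed. The lowest adjusted p among the 42 was 0.221 for ASAH1 (VEGF-C against scrambled siRNA), 0.293 for MAN2B1 (NRP-2 against scrambled siRNA) and 0.118 for ATP6V0A2 (NRP-2 against VEGF-C siRNA). The genes are therefore described at an unadjusted p under 0.05, called past p here, beside the share of all genes past p. With VEGF-C siRNA 6 of 42 (14.3%) were past p, 1 higher and 5 lower, and 14.8% of all genes were (6.95% higher, 7.8% lower). With NRP-2 siRNA 5 of 42 (11.9%) were past p, 1 higher and 4 lower, and 13.3% of all genes were (6.43% higher, 6.85% lower). Both shares were near those of all genes. Between NRP-2 and VEGF-C siRNA 3 of 42 (7.14%) were past p, 2 higher and 1 lower, and 18.2% of all genes were (9.54% higher, 8.66% lower). The comparisons against scrambled siRNA share its arrays. A fit without 1 array leaves 1 in its group and fewer residual degrees of freedom in every comparison. The fit with the G2 and mitosis average as covariate also has fewer residual degrees of freedom. In either kind of fit a gene can cease to be past p at an unchanged difference. Counts from fits without 1 array are therefore not given, although they moved for the 42 genes and for other lists. The differences below are the part to read.

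The differences were small and leaned to lower values. For VEGF-C siRNA the median difference from scrambled siRNA was -0.12 on the log2 scale, against -0.004 over all genes tested, and 29 of the 42 lay below 0 (69.0%, against 50.7% of all genes). For NRP-2 siRNA the median was -0.06, against 0.01 over all genes, and 31 lay below 0 (73.8%, against 48.2%). Between NRP-2 and VEGF-C siRNA the median was 0.0003, against 0.02 over all genes, with 21 of 42 below 0, against 47.3% of all genes. By array, the median difference of the 42 genes from the scrambled mean was -0.19 and -0.04 on the VEGF-C arrays, -0.03 and -0.14 on the NRP-2 arrays, and -0.002 and 0.002 on the scrambled arrays. VEGF-C array 1 and NRP-2 array 2 were thus the lower of their groups. The VEGF-C median was -0.04 without VEGF-C array 1 and -0.19 without VEGF-C array 2, and the NRP-2 median was -0.14 without NRP-2 array 1, -0.03 without NRP-2 array 2 and -0.12 without scrambled array 1. The arrays did not overlap with scrambled for 16 lower and 7 higher genes with VEGF-C siRNA (38.1% and 16.7%, against 26.6% and 26.8% of all genes). With NRP-2 siRNA they did not overlap for 19 lower and 4 higher genes (45.2% and 9.52%, against 24.4% and 25.3%). Between NRP-2 and VEGF-C siRNA 9 genes did not overlap in either direction (21.4% each, against 24.1% higher and 22.4% lower). Regardless of sign, the median size of a difference was 1.14-fold, 1.15-fold and 1.11-fold in the 3 comparisons. Over all genes tested it was 1.15-fold, 1.15-fold and 1.16-fold, so small differences were not particular to these genes.

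**Figure D1:**
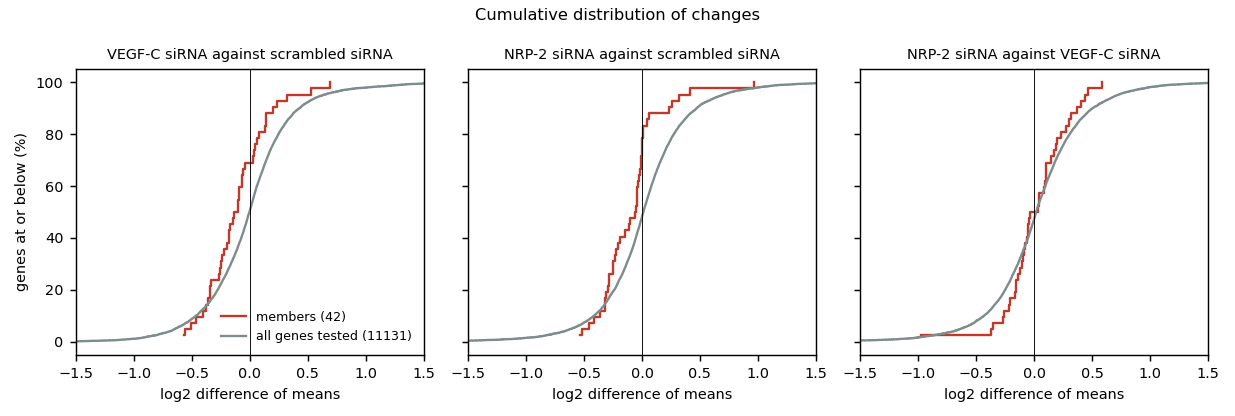
Cumulative share of genes (y axis, percent) at or below a log2 difference of means (x axis) for the 42 lysosomal genes (red) and all 11131 genes tested (grey) in the 3 comparisons. Around 0 the red line lies above the grey one in both comparisons against scrambled siRNA, with medians of -0.12 and -0.06, and close to it between NRP-2 and VEGF-C siRNA.

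With 2 arrays a group, the standard error (SE) of a difference ran from 0.12 for ATP6V1D to 0.54 for MANBA with a median of 0.16. The 95% interval of a typical gene reached 0.39 log2 units (1.31-fold) to either side. Levels are deposited log2 values per array, and the level of a gene is not set against that of another, because probe sets differ in brightness.

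Among the proton pump genes, both accessory subunits were lower with VEGF-C siRNA. ATP6AP2, the accessory subunit also known as the prorenin receptor, stood at log2 14.09 and 14.25 with VEGF-C siRNA and 14.23 and 14.28 with NRP-2 siRNA, against 14.61 and 14.54 with scrambled siRNA. Both targeting groups lay below both scrambled arrays. The difference from scrambled was -0.41 for VEGF-C siRNA (SE 0.12, adjusted p = 0.267) and -0.32 for NRP-2 siRNA (SE 0.12, adjusted p = 0.366), 1.32-fold and 1.25-fold lower and both past p before adjustment. Its second probe set gave -0.27 and -0.38. ATP6AP1, the accessory subunit that helps the membrane sector assemble, stood at 11.02 and 11.09 with VEGF-C siRNA and 11.16 and 11.15 with NRP-2 siRNA, against 11.48 and 11.32 with scrambled siRNA. Here too neither targeting group reached the scrambled arrays. The difference was -0.35 for VEGF-C siRNA (SE 0.12, adjusted p = 0.311), past p, and -0.25 for NRP-2 siRNA (95% interval -0.55 to 0.06), not past p.

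These calls ended in fits without 1 array, which have fewer degrees of freedom. Such a loss does not by itself show that a call rested on that array. ATP6AP2 with VEGF-C siRNA was no longer past p without scrambled array 1 (-0.37), scrambled array 2 (-0.44) or VEGF-C array 1 (-0.33). ATP6AP2 with NRP-2 siRNA was not past p without any of the 4 arrays compared (-0.35 to -0.29). ATP6AP1 was likewise not past p without scrambled array 1 (-0.27) or 2 (-0.43), nor without VEGF-C array 1 (-0.31) or 2 (-0.38). With the G2 and mitosis average as covariate none of the 3 was past p, at values of -0.38 and -0.30 for ATP6AP2 and -0.42 for ATP6AP1. That fit too has fewer degrees of freedom, so a loss there does not by itself show that a call rested on that average. ATP6AP2 with NRP-2 siRNA was also not past p with arrays shifted to equal medians (-0.30).

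ATP6V0A2, an alternative form of the large subunit of the membrane sector, had a pair of probe sets above log2 4 that went opposite ways. The brighter stood at log2 8.30 and 8.72 with VEGF-C siRNA and 7.51 and 7.56 with NRP-2 siRNA, against 7.74 and 7.90 with scrambled siRNA. On it the VEGF-C arrays were the highest and the NRP-2 arrays the lowest. The difference from scrambled was 0.69 for VEGF-C siRNA (SE 0.17, adjusted p = 0.241), past p, and -0.29 for NRP-2 siRNA (95% interval -0.73 to 0.15). The difference of NRP-2 from VEGF-C siRNA was -0.98 (SE 0.17, adjusted p = 0.118), past p. The dimmer stood at 6.65 and 6.98 with VEGF-C siRNA and 7.88 and 8.03 with NRP-2 siRNA, against 6.61 and 7.25 with scrambled siRNA. Here the NRP-2 arrays were the highest, and the VEGF-C arrays overlapped with scrambled. The difference from scrambled was -0.11 for VEGF-C siRNA and 1.03 for NRP-2 siRNA (SE 0.25, adjusted p = 0.216), and NRP-2 siRNA was above VEGF-C siRNA by 1.14. Taking the mean of both, the difference was 0.29 for VEGF-C siRNA and 0.08 between NRP-2 and VEGF-C siRNA, neither past p, so no direction is given for ATP6V0A2 as a gene. On the brighter probe set the VEGF-C difference was also not past p without scrambled array 1 (0.61).

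ATP6V1C1, the subunit of the cytosolic sector that links it to the stator, is named after its values were seen, because its probe sets differed in size. The brightest stood at log2 11.02 and 11.20 with VEGF-C siRNA and 11.01 and 10.68 with NRP-2 siRNA, against 11.11 and 11.30 with scrambled siRNA, differences of -0.10 and -0.36 that were not past p. A dimmer one stood at 10.63 and 10.47 with VEGF-C siRNA and 9.79 and 10.49 with NRP-2 siRNA, against 11.47 and 11.40 with scrambled siRNA. On it all targeting arrays lay below both scrambled arrays, by -0.88 (SE 0.25, adjusted p = 0.274) and -1.29 (SE 0.25, adjusted p = 0.193). Its dimmest probe set above log2 4 gave -0.54 and -0.56. With each probe set as a feature of its own, 12 of the 82 lysosomal ones were past p for VEGF-C siRNA and 13 for NRP-2 siRNA, and 13.9% and 13.8% of all probe sets were. Averaged over its probe sets, ATP6V1C1 was past p as lower for both siRNAs.

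ATP6V1A, the catalytic subunit that hydrolyses ATP, stood at log2 12.06 and 11.79 with NRP-2 siRNA, against 11.63 and 11.40 with VEGF-C siRNA, and at 11.60 and 11.73 with scrambled siRNA. The NRP-2 arrays lay above the VEGF-C arrays by 0.41 (SE 0.16, adjusted p = 0.271), past p. That difference was not past p without either scrambled array (0.41 each), without NRP-2 array 1 (0.27) or VEGF-C array 2 (0.29), with arrays shifted to equal medians (0.41), with the G2 and mitosis average as covariate (0.42), or averaged over its probe sets (0.39). Against scrambled siRNA it was -0.15 for VEGF-C siRNA and 0.26 for NRP-2 siRNA, neither past p.

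The other 9 proton pump genes were past p in no comparison, with mean levels on the scrambled arrays from 8.84 for ATP6V1H to 13.34 for ATP6V1G1. For VEGF-C siRNA they lay between -0.17 for ATP6V1D, a subunit of the central stalk, and 0.20 for ATP6V1G1, a stator subunit. A second probe set of ATP6V1G1 gave 0.71 for VEGF-C siRNA, past p, and 0.37 for NRP-2 siRNA, not past p. For NRP-2 siRNA the 9 lay between -0.29 for ATP6V1H, a regulatory subunit, and 0.23 for ATP6V0E1, a small membrane subunit whose probe sets all gave values above 0 there (0.09 to 0.32). ATP6V0C, which forms the proton-carrying ring, was at 0.06 and -0.04, and its partner ATP6V0B at 0.08 and -0.02. ATP6V0D1, which couples the ring to the stalk, was at 0.04 and 0.01, and the stator subunit ATP6V1E1 at 0.13 and -0.01. ATP6V1B2, which pairs with ATP6V1A in the cytosolic sector, was at -0.09 and -0.21. Over the 14 genes the median was -0.02 for VEGF-C siRNA and -0.05 for NRP-2 siRNA.

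**Figure D2:**
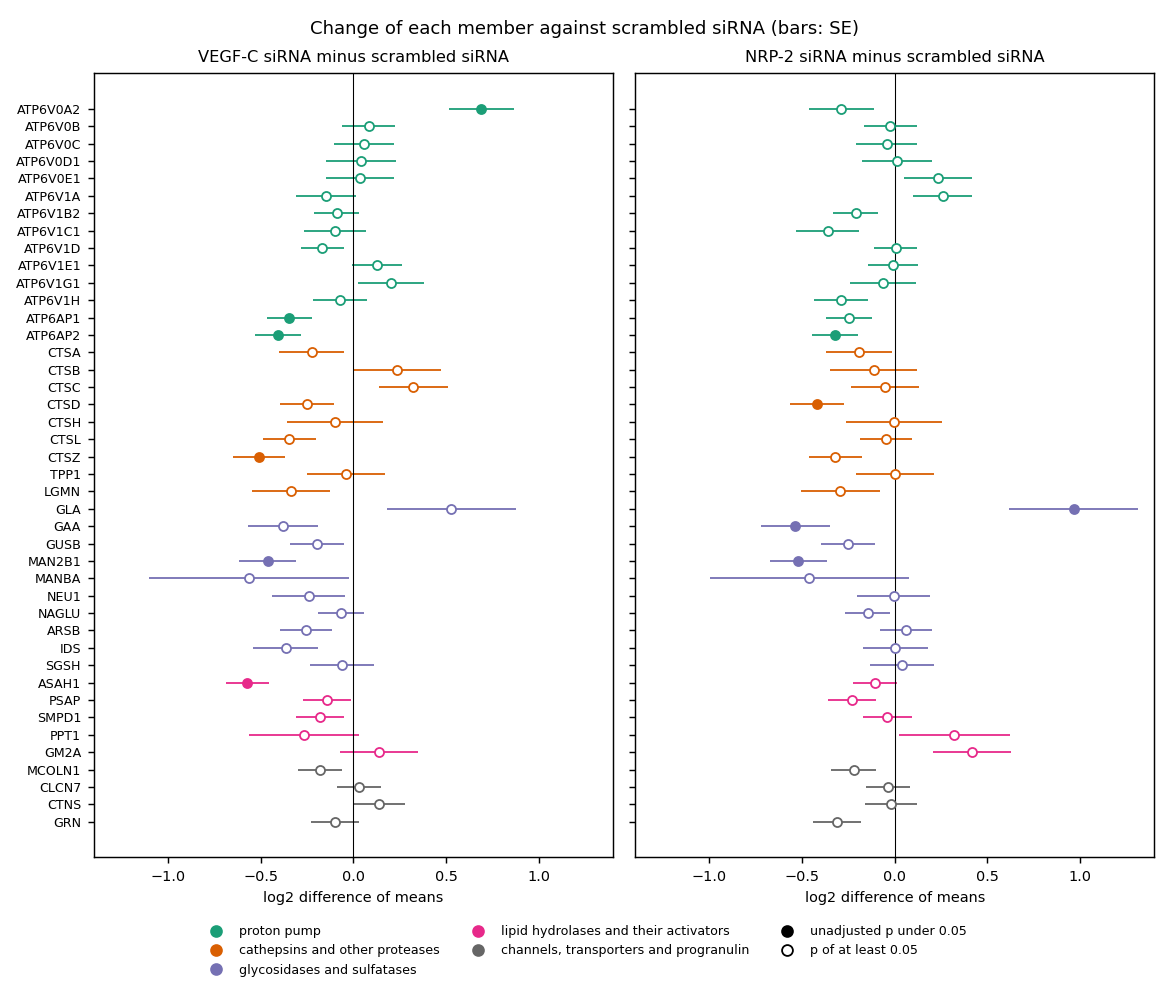
Log2 difference of means (x axis) with its SE (bars) of each of the 42 genes, coloured by class, for VEGF-C siRNA minus scrambled siRNA (left) and NRP-2 siRNA minus scrambled siRNA (right). Filled points had an unadjusted p under 0.05: 6 on the left, from -0.57 for ASAH1 to 0.69 for ATP6V0A2, and 5 on the right, from -0.54 for GAA to 0.96 for GLA.

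Of the 9 cathepsins and other proteases, 1 was past p for each siRNA, both as lower (11.1%, beside 14.8% of all genes for VEGF-C siRNA and 13.3% for NRP-2 siRNA). CTSZ, a carboxypeptidase, stood at log2 10.11 and 10.38 with VEGF-C siRNA and 10.48 and 10.39 with NRP-2 siRNA, against 10.74 and 10.77 with scrambled siRNA. Both targeting groups lay below scrambled, by -0.51 for VEGF-C siRNA (SE 0.14, adjusted p = 0.251), past p, and -0.32 for NRP-2 siRNA (95% interval -0.67 to 0.03). The VEGF-C difference was not past p without scrambled array 1 (-0.52), scrambled array 2 (-0.50) or VEGF-C array 1 (-0.37), nor with the covariate (-0.46). CTSD, the main aspartic protease of lysosomes, stood at 7.62 and 7.87 with VEGF-C siRNA and 7.49 and 7.66 with NRP-2 siRNA, against 8.03 and 7.95 with scrambled siRNA. No array of either targeting group reached the scrambled arrays. The difference was -0.25 for VEGF-C siRNA (95% interval -0.61 to 0.12) and -0.42 for NRP-2 siRNA (SE 0.15, adjusted p = 0.335), past p. The NRP-2 difference was not past p without scrambled array 1 (-0.38), scrambled array 2 (-0.46) or NRP-2 array 1 (-0.33), nor with the covariate (-0.36).

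The other proteases did not pass, with mean levels on the scrambled arrays from 10.00 for TPP1 to 14.19 for CTSC. For VEGF-C siRNA the cysteine protease CTSL was at -0.35 (95% interval -0.70 to 0.01), LGMN, the asparaginyl endopeptidase that matures other cathepsins, at -0.34, and CTSA, which protects neuraminidase and beta-galactosidase, at -0.22. CTSC, a dipeptidyl peptidase, was at 0.32 (-0.14 to 0.79), and the cysteine protease CTSB at 0.24 (-0.34 to 0.82). For NRP-2 siRNA 8 of the 9 lay below 0, from -0.42 for CTSD to -0.003 for CTSH, an aminopeptidase. TPP1, a tripeptidyl peptidase, had a second probe set at 8.51 and 8.65 with VEGF-C siRNA and 8.39 and 8.71 with NRP-2 siRNA, against 8.96 and 9.27 with scrambled siRNA. It was lower for both, by -0.54 (SE 0.18) and -0.57 (SE 0.18), past p, where the brighter one gave -0.04 and 0.002. CTSC had a dimmer probe set that was higher for both, by 0.41 and 0.35, past p, where its brightest was not. The extra probe sets of TPP1, CTSC and ATP6V1G1 were singled out after their values were seen. Over the 9 genes the median was -0.22 for VEGF-C siRNA and -0.11 for NRP-2 siRNA.

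Of the 10 glycosidases and sulfatases, 1 was past p for VEGF-C siRNA, beside 14.8% of all genes, and 3 for NRP-2 siRNA, beside 13.3%. MAN2B1, the acid alpha-mannosidase, was lower with both. It stood at log2 10.03 and 10.11 with VEGF-C siRNA and 10.01 and 10.03 with NRP-2 siRNA, against 10.71 and 10.36 with scrambled siRNA. The targeting arrays lay close together below both scrambled arrays, which lay further apart. The difference was -0.46 for VEGF-C siRNA (SE 0.15, adjusted p = 0.294) and -0.52 for NRP-2 siRNA (SE 0.15, adjusted p = 0.293), both past p. Without scrambled array 1, the higher one, they were -0.29 and -0.35, neither past p. The VEGF-C difference was also not past p without VEGF-C array 1 (-0.42) or array 2 (-0.50), nor the NRP-2 difference without NRP-2 array 1 (-0.51).

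GAA, the acid alpha-glucosidase that degrades glycogen, stood at log2 9.09 and 9.11 with VEGF-C siRNA and 8.71 and 9.19 with NRP-2 siRNA, against 9.40 and 9.56 with scrambled siRNA. All 4 targeting arrays lay below both scrambled arrays, by -0.38 for VEGF-C siRNA (95% interval -0.85 to 0.09) and -0.54 for NRP-2 siRNA (SE 0.19, adjusted p = 0.336), past p. The NRP-2 difference was not past p without scrambled array 1 (-0.61), scrambled array 2 (-0.46), NRP-2 array 1 (-0.30) or either VEGF-C array (-0.54 each), nor with the G2 and mitosis average as covariate (-0.35).

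GLA, the alpha-galactosidase that degrades globo-series glycolipids, had the highest difference of NRP-2 from scrambled siRNA among the 42 genes. It stood at log2 9.66 and 9.60 with VEGF-C siRNA and 10.57 and 9.55 with NRP-2 siRNA, against 9.30 and 8.90 with scrambled siRNA. Every targeting array was above both scrambled arrays, and the NRP-2 arrays lay far apart. The difference was 0.53 for VEGF-C siRNA (SE 0.35), not past p, and 0.96 for NRP-2 siRNA (SE 0.35, adjusted p = 0.347), or 1.95-fold, past p. It was not past p without scrambled array 1 (1.16), scrambled array 2 (0.77), NRP-2 array 1 (0.45) or either VEGF-C array (0.96 each), nor with no low-value filter (0.96). The first array of each group had the higher G2 and mitosis average as well as the higher GLA. With that average as covariate the NRP-2 difference of GLA was 0.55, not past p, in a fit with fewer residual degrees of freedom. A link between that average and GLA was not tested.

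The remaining 7 of this class did not pass, with mean levels on the scrambled arrays from 4.93 for ARSB to 12.59 for IDS. MANBA, the beta-mannosidase, is given by array after its values were seen, because it had the widest spread between arrays of a group among the 42 genes. It stood at log2 9.03 and 9.46 with VEGF-C siRNA and 8.71 and 9.99 with NRP-2 siRNA, against 9.26 and 10.36 with scrambled siRNA, and its differences of -0.56 and -0.46 were of the size of their SE (0.54). IDS, a sulfatase of dermatan and heparan sulfate, was at -0.36 for VEGF-C siRNA (95% interval -0.80 to 0.08) and 0.003 for NRP-2 siRNA on its brightest probe set. Its others above log2 4 gave -0.57 to 0.19 and -0.89 to -0.12. ARSB, the arylsulfatase of dermatan sulfate, was at -0.26 and 0.06, and NEU1, the lysosomal sialidase, at -0.24 and -0.005. GUSB, the beta-glucuronidase, was at -0.20 and -0.25, below scrambled on all 4 targeting arrays. NAGLU and SGSH, which act on heparan sulfate, were at -0.07 and -0.15, and at -0.06 and 0.04. Over the 10 genes the median was -0.25 for VEGF-C siRNA and -0.08 for NRP-2 siRNA.

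**Figure D3:**
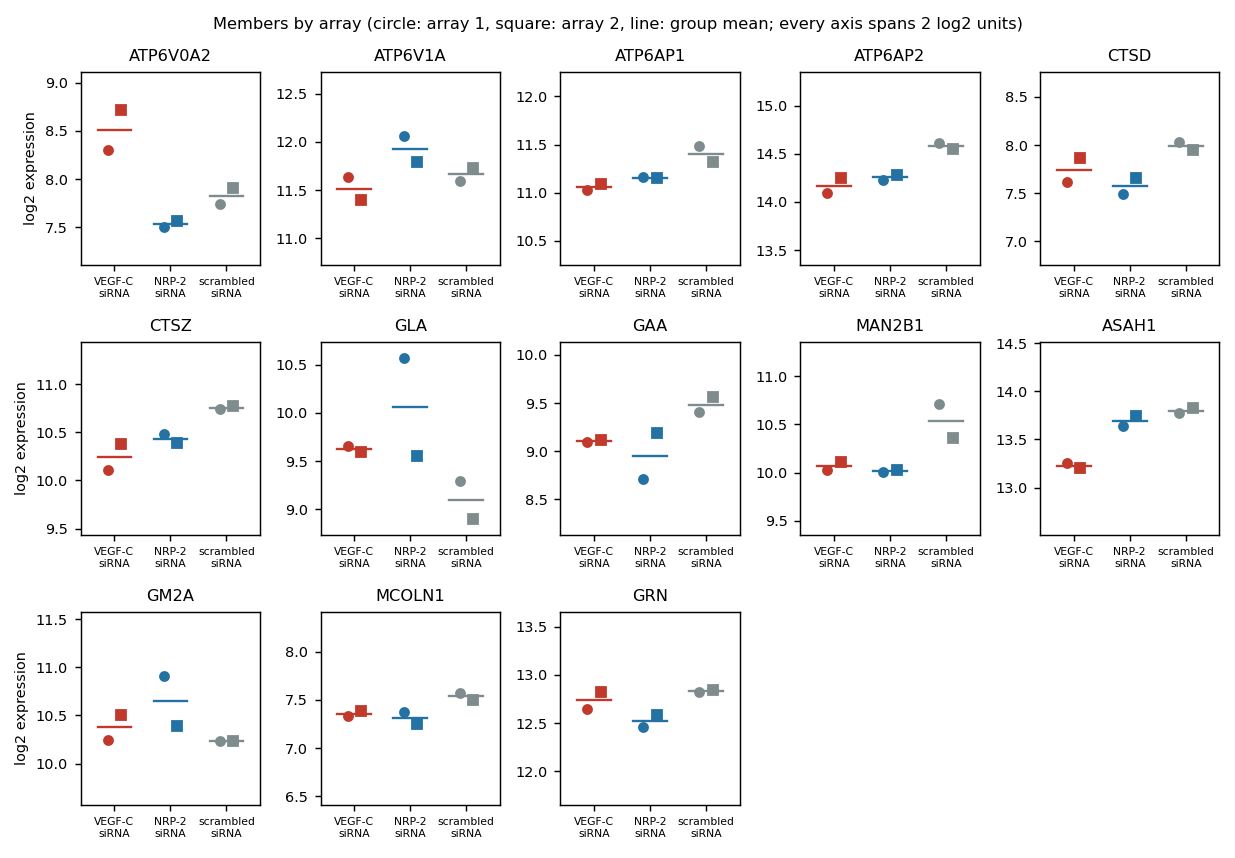
Deposited log2 expression (y axis) by array for 13 genes, those past p in any comparison and the 2 of each class with the smallest p against scrambled siRNA (circles: array 1, squares: array 2, lines: group means), with VEGF-C siRNA, NRP-2 siRNA and scrambled siRNA from left to right. ASAH1 reads 13.25 and 13.20 on the VEGF-C arrays and higher on all others, ATP6AP2 and MAN2B1 are below scrambled on all 4 targeting arrays, and GLA reads 10.57 and 9.55 on the NRP-2 arrays.

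Among the lipid hydrolases and their activators, ASAH1 was lower with VEGF-C siRNA. ASAH1 encodes acid ceramidase, which splits ceramide into sphingosine and a fatty acid. It stood at log2 13.25 and 13.20 with VEGF-C siRNA and 13.64 and 13.75 with NRP-2 siRNA, against 13.77 and 13.83 with scrambled siRNA. The VEGF-C arrays lay below all 4 other arrays. The difference was -0.57 for VEGF-C siRNA (SE 0.12, adjusted p = 0.221), 1.49-fold lower and past p, and -0.11 for NRP-2 siRNA (95% interval -0.40 to 0.19). NRP-2 siRNA was above VEGF-C siRNA by 0.47 (SE 0.12, adjusted p = 0.154), 1.38-fold and past p. Both stayed past p under each of 14 alternatives, leaving out any 1 array included, with values from -0.60 to -0.49 and from 0.41 to 0.52. Its 4 probe sets above log2 4 gave -0.57, -0.58, -0.43 and -0.37 for VEGF-C siRNA, and -0.11, -0.14, -0.19 and 0.26 for NRP-2 siRNA. The fit by single probe set is not among the 14 alternatives. In it the probe sets at -0.43 and -0.37 were not past p for VEGF-C siRNA, nor between NRP-2 and VEGF-C siRNA.

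GM2A, the activator that presents ganglioside to hexosaminidase, stood at log2 10.24 and 10.51 with VEGF-C siRNA and 10.91 and 10.39 with NRP-2 siRNA, against 10.23 and 10.24 with scrambled siRNA. The targeting arrays were at or above the scrambled ones, by 0.14 for VEGF-C siRNA and 0.42 for NRP-2 siRNA (95% interval -0.11 to 0.94), neither past p. Its dimmest probe set above log2 4 gave 0.05 for VEGF-C siRNA and 0.59 for NRP-2 siRNA (SE 0.16, adjusted p = 0.236), past p. PPT1, the palmitoyl-protein thioesterase, is given by array after its values were seen. It stood at 14.04 and 13.49 with NRP-2 siRNA, against 13.53 and 12.82 with VEGF-C siRNA, and at 13.54 and 13.35 with scrambled siRNA. Its difference of NRP-2 from VEGF-C siRNA, 0.59 (95% interval -0.16 to 1.34), was not past p, and the groups overlapped. With the G2 and mitosis average as covariate it was past p as higher. PSAP, the precursor of the saposins, was at -0.14 for VEGF-C siRNA and -0.23 for NRP-2 siRNA, and SMPD1, the acid sphingomyelinase, at -0.18 and -0.04. Over the 5 genes the median was -0.18 for VEGF-C siRNA and -0.04 for NRP-2 siRNA.

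Of the channel, transporter and progranulin genes 0 of 4 were past p on their brightest probe sets. MCOLN1, a calcium channel of lysosomes, stood at log2 7.33 and 7.38 with VEGF-C siRNA and 7.38 and 7.25 with NRP-2 siRNA, against 7.58 and 7.50 with scrambled siRNA. All 4 targeting arrays were below scrambled, by -0.18 (95% interval -0.48 to 0.12) and -0.22 (-0.52 to 0.08). GRN, progranulin, which is processed to granulins in the lysosome, stood at 12.65 and 12.83 with VEGF-C siRNA and 12.46 and 12.59 with NRP-2 siRNA, against 12.82 and 12.85 with scrambled siRNA. The VEGF-C arrays overlapped with scrambled (-0.10) and the NRP-2 arrays lay below it, by -0.31 (-0.63 to 0.01), with -0.32 and -0.36 on its other probe sets. It was past p as lower on the last of these, averaged over its probe sets (-0.33), without the low-value filter and with a variance trend (-0.31 each). CLCN7, the chloride-proton exchanger, was at 0.03 (-0.27 to 0.33) and -0.03 (-0.33 to 0.26), and the cystine exporter CTNS at 0.14 and -0.02. Over the 4 genes the median was -0.03 for VEGF-C siRNA and -0.13 for NRP-2 siRNA.

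**Figure D4:**
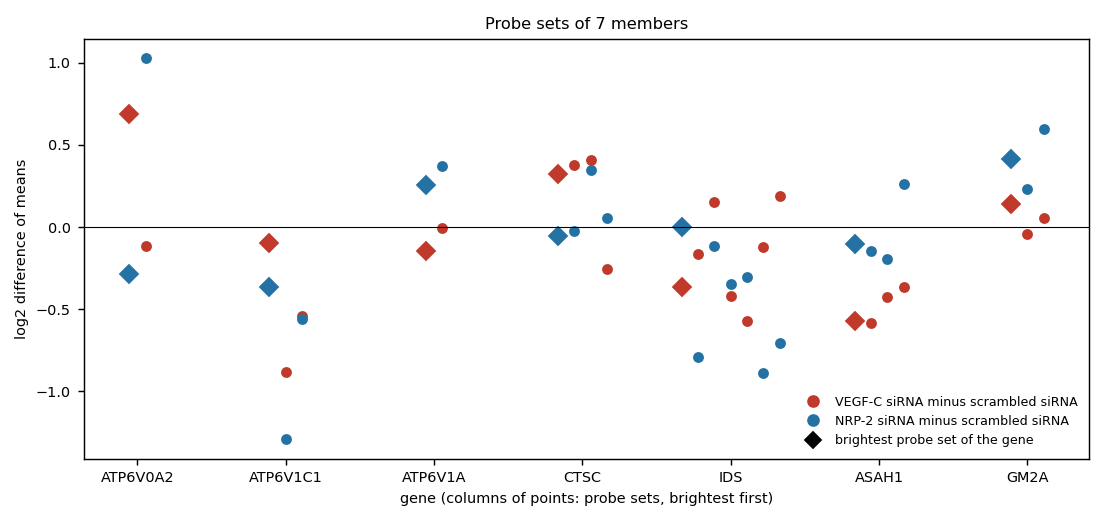
Log2 difference of means (y axis) of every probe set with a mean of log2 4 or more for 7 genes (x axis), for VEGF-C siRNA minus scrambled siRNA (red) and NRP-2 siRNA minus scrambled siRNA (blue), with diamonds for the brightest probe set. The 4 probe sets of ASAH1 are below 0 for VEGF-C siRNA (-0.58 to -0.37), and those of ATP6V0A2 lie on opposite sides of 0 for both siRNAs.

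Agreement between probe sets of a gene could be examined for 19 genes with more than 1 above log2 4. For VEGF-C siRNA 9 of the 19 had all probe sets lower, 2 all higher and 8 on both sides of 0. For NRP-2 siRNA these counts were 8, 4 and 7. The median spread between the probe sets of a gene was 0.22 for VEGF-C siRNA and 0.32 for NRP-2 siRNA, and it was widest for ATP6V0A2 (0.80 and 1.31).

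The 10 measured genes with an E-box had a median difference of -0.20 for VEGF-C siRNA, from -0.38 for GAA to 0.20 for ATP6V1G1, and 0 were past p, beside 14.8% of all genes. The 20 with a promoter but no E-box had a median of -0.13, and 5 were past p. For NRP-2 siRNA the medians were -0.05 and -0.04, with 2 (GAA and CTSD) and 3 past p, beside 13.3% of all genes. The other 12 had no promoter among those matched. Those matched held none on chr8, which is not given as the reason for all 12. The difference between genes with and without an E-box was not tested.

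Other lysosomal genes, outside the 47, were counted in the same fit, in which 14.8% of all genes were past p for VEGF-C siRNA (7.8% lower) and 13.3% for NRP-2 siRNA. Their lists were also drawn up with earlier results of these data known. Of 8 further vacuolar ATPase subunits and assembly factors, 2 were past p for VEGF-C siRNA, both lower, and 0 for NRP-2 siRNA. They were DMXL2 (-0.61, adjusted p = 0.217) and WDR7 (-0.51, adjusted p = 0.315), which form the rabconnectin complex that acts on pump assembly. Both counts moved in fits without 1 array, which have fewer degrees of freedom. Counts from such fits are not given for these lists either. Of 23 further genes of lysosomal enzymes and their partners, mostly hydrolases, 5 were lower for VEGF-C siRNA (21.7%). That count also moved when 1 array was left out. For NRP-2 siRNA 1 was higher and 3 lower (17.4%). The higher one was NAAA, an acid amidase (1.09, adjusted p = 0.213). Among the lower were the mannosidase gene MAN2B2 (-1.13, adjusted p = 0.213) and the acid phosphatase gene ACP2 (-0.80, adjusted p = 0.231). Both were also past p as lower for VEGF-C siRNA (-0.56, adjusted p = 0.333, and -0.50, adjusted p = 0.32).

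A further list held 9 genes that tag, modify, export or sort lysosomal hydrolases, not all of them through mannose 6-phosphate. For NRP-2 siRNA 2 were higher and 4 lower (66.7% past p, beside 13.3% of all genes). For VEGF-C siRNA 0 were past p. M6PR, the cation-dependent receptor of tagged hydrolases, stood at log2 9.60 and 10.10 with NRP-2 siRNA, against 10.59 and 10.72 with scrambled siRNA (-0.81, adjusted p = 0.232). IGF2R, the cation-independent receptor, stood at 10.56 and 10.92 with NRP-2 siRNA, against 11.29 and 11.32 with scrambled siRNA (-0.56, adjusted p = 0.276). SUMF2, a paralog of the sulfatase-modifying factor, was at -0.63 (adjusted p = 0.253). The count past p for NRP-2 siRNA was 3 with the G2 and mitosis average as covariate, a fit with fewer residual degrees of freedom. It also fell without either scrambled array. Of 17 further membrane proteins 1 was higher and 3 lower for VEGF-C siRNA (23.5%, a count that moved without scrambled array 2). For NRP-2 siRNA 3 were higher and 1 lower (23.5%). Among them was the membrane glycoprotein LAMP2 (14.00 and 13.78 with NRP-2 siRNA, against 12.20 and 12.58 with scrambled siRNA). LAMP2 was also the 1 higher for VEGF-C siRNA (13.32 and 13.54, a difference of 1.05, adjusted p = 0.209). The cholesterol exporter NPC1 (-1.22, adjusted p = 0.213) and OSTM1, the partner subunit of CLCN7 (0.95, adjusted p = 0.213), were past p for NRP-2 siRNA only. Of 5 measured transcription factors of lysosomal genes 0 were past p for either siRNA.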

How the data were processed

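Biotin-labelled material from 6 ug of PC3 RNA, per the labels' protocols, was read on Affymetrix HG-U133 Plus 2.0 arrays. The deposited values are log2 expression, which the submitters' processing notes credit to Partek with GCRMA; no versions are known here. GCRMA compresses values near the floor, so differences of dim genes are understated. The values ran from 0.82 to 16.32, and array medians spread over 0.07.

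Of 54675 probe sets, 41091 name 1 gene in the 2016 annotation. The filter kept means of log2 4 or more and the brightest probe set of each gene (11131 genes). limma 3.58.1 in R 4.3.3 (lmFit, eBayes, two-sided) used all 6 arrays, with 3 residual and 2.46 prior degrees of freedom and Benjamini-Hochberg adjustment over all genes, and was tested on simulated data. An exact permutation test of 2 arrays against 2 cannot go below 0.333. Values in every array are given for genes past an unadjusted p of 0.05 in any comparison and for the 2 with the smallest p against scrambled siRNA in each class; other lists name at most 3 genes. ATP6V1C1, MANBA, PPT1 and single further probe sets were added after their values were seen. Genes and lists were chosen with earlier results of these data known. Alternatives varied probe set choice, filter, scaling, replicate block, covariate, variance trend and arrays.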

Additional observations from a re-analysis of the deposited data

How the results depend on the processing

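The number of the 42 genes past p moved with the settings. For VEGF-C siRNA (6) it was 3 with the G2 and mitosis average as covariate, with fewer degrees of freedom (7.47% of all genes there). By probe set it was 12 of 82. For NRP-2 siRNA (5) it was 1 with the covariate (9.15% of all genes), 10 of 45 without the low-value filter (9.63%) and 13 of 82 by probe set. Between NRP-2 and VEGF-C siRNA (3) it was 1 on averaged probe sets, 6 without the filter (12.7%) and 8 of 82 by probe set. Fits without 1 array, which leave 1 in a group, are given here by their medians only. The NRP-2 median was -0.13 on averaged probe sets. Without any 1 array the medians ran from -0.192 to -0.0396, from -0.1429 to -0.0325 and from -0.1106 to 0.0281. The ATP6V0A2 difference of NRP-2 from VEGF-C siRNA reversed to 0.0818 on averaged probe sets, which go opposite ways. Over all genes, 1 was called without the filter in the VEGF-C comparison and 1 between NRP-2 and VEGF-C siRNA, and 0 in every other setting. Other causes were not tested.

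Of the 14 calls past p (a gene in a comparison), 2, both of ASAH1, held under all 14 alternatives. These do not include the fit by single probe set, in which some ASAH1 probe sets were not past p. The covariate ended 8 of the 14 calls, of which GAA and GLA moved by over 1.5 times. That fit and the replicate block fit have fewer residual degrees of freedom. Leaving out a scrambled array also ended calls, some of them at larger differences, since such fits have fewer degrees of freedom. Arrays share replicate numbers, and the replicate 1 deviations of each pair of groups correlated by 0.11, 0.58 and 0.12, which with 2 numbers does not show pairing. The replicate block left 5, 4 and 4 genes past p and ended 3 calls: ATP6AP1 for VEGF-C siRNA, ATP6AP2 for NRP-2 siRNA and ATP6V1A between them. It added PPT1 (higher) and CTSC (lower) between NRP-2 and VEGF-C siRNA. Signal near the floor limits ATP6V0A1, ARSA and HEXA.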
